A study of Mus musculus with 10 samples.

Results

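The 39 protein-coding genes of the mouse Hox clusters were followed through 5 sorted populations of mammary gland cells. Members were the gene rows whose Ensembl identifier carries a Hoxa, Hoxb, Hoxc or Hoxd symbol with a number in GENCODE M21, and 39 of 49671 gene rows met this rule. HoxA on chromosome 6 held 11 members, HoxB on chromosome 11 held 10, HoxC on chromosome 15 held 9 and HoxD on chromosome 2 held 9. The populations were Tomato hybrid cells (THC), Tomato luminal cells (TLC), Tomato basal cells (TBC), luminal cells (LC) and basal cells (BC), with 2 libraries each and 10 in all. Tomato is a red fluorescent reporter. THC, TLC and TBC came from mice labelled as treated by luminal cell ablation, and LC and BC carried no treatment label, with the second library of each marked wild type. Every comparison of a Tomato population with LC or BC therefore contrasts marking and ablation at once. The labels used here name no mouse line, promoter or age, and they do not state whether replicates are different animals, so p-values measure only the spread between these samples.

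Hox genes encode transcription factors with a homeodomain and stand in clusters whose order along the chromosome follows the order in which the genes are used along the body axis. Genes with the same number in different clusters descend from one ancestor and are called paralogs, with low numbers toward the head and high numbers toward the tail. Adult tissues keep part of the pattern set in the embryo, so fibroblasts and endothelial cells of one body site also carry a Hox pattern. In the mouse mammary gland, Hoxa9, Hoxb9 and Hoxd9 together are needed for the gland to develop and lactate after pregnancy.

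Counts assigned to genes ran from 2757773 in THC replicate 1 to 13685674 in LC replicate 2. In THC replicate 1, 43% of alignments were not unique, against 14.6% (TBC replicate 2) to 22.4% (BC replicate 1) in the other libraries. A value of 3 counts equalled 1.16 CPM, the count scaled to a common library size and composition, in THC replicate 1 and 0.202 CPM in THC replicate 2. Of 12 basal markers 12 were lower in LC than in BC by the test described below, and of 15 luminal markers 15 were higher, as the labels state. Summed levels of 15 luminal markers were 4619 and 3908 CPM in THC, 6543 and 5818 CPM in TLC, and 1271 and 911.9 CPM in TBC. In LC they were 12160 and 10030 CPM. The 12 basal markers summed to 7164 and 6003 CPM in THC, 2320 and 1639 in TLC, and 20170 and 15090 in TBC. In LC the basal sums were 873.8 and 730.6 CPM, and in TLC vs LC 6 basal markers were called higher and 0 lower. In bulk samples, fewer cells of a type and less RNA per cell cannot be told apart.

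All 39 members together received 4537 counts in the 10 libraries, and the HoxB cluster held 82.6% of them. HoxD held 8.49%, HoxA 4.92% and HoxC 4.01%. A block of 3 adjacent HoxB genes, Hoxb2, Hoxb3 and Hoxb4, held 3558 counts or 78.4% of the total, which left 979 counts for the other 36 members. The edges of this block were steep. Hoxb4 had 843 counts against 46 for its neighbour Hoxb5, and Hoxb2 had 743 counts against 8 for its neighbour Hoxb1. Hoxb3 had 1972 counts. By position, paralogs 1 to 3 held 62.3% of the counts, paralogs 4 to 8 held 32.8% and paralogs 9 to 13 held 4.87%.

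**Figure D1:**
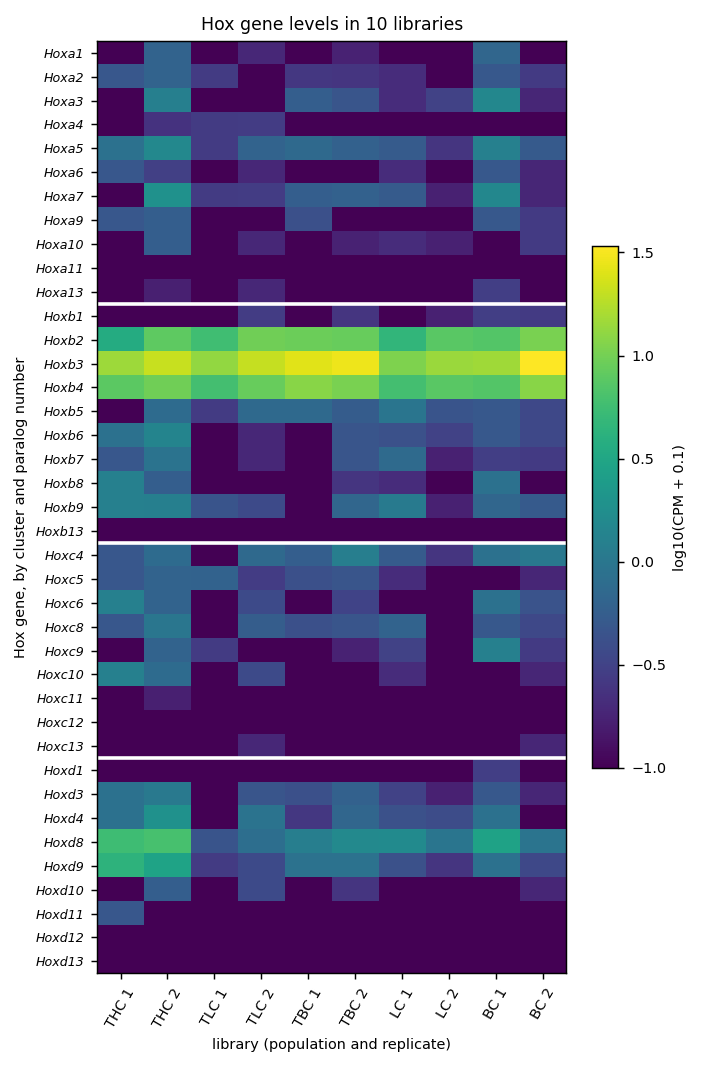
Level of each of the 39 Hox genes (rows, by cluster and paralog number) in each of the 10 libraries (columns), as log10 of CPM plus 0.1. White lines part the 4 clusters. Hoxb2, Hoxb3 and Hoxb4 form one bright band in all 10 libraries, and Hoxd8 and Hoxd9 stand out in both THC libraries.

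Beyond this block, Hoxd8 was the only other member over 100 counts, with 192. A further 24 members had 6 to 100 counts over all libraries, among them Hoxd9 with 85, Hoxa5 and Hoxd4 with 58 each, and Hoxc4 with 57. Hoxa4, Hoxa13, Hoxc11, Hoxc13, Hoxd1 and Hoxd11 had 1 to 5 counts. Hoxa11, Hoxb13, Hoxc12, Hoxd12 and Hoxd13, posterior genes that include regulators of limb and urogenital development, had 0 counts in every library. Counting floors differ with depth, and a gene at 0 in THC replicate 1 could stand at up to 1.16 CPM there by counting error alone. These floors and the intervals below cover counting error only.

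Level per length showed the same block. Averaged over 10 libraries, Hoxb3 stood at 4.63 CPM per kb of exon, Hoxb4 at 3.37, Hoxb2 at 2.11, Hoxd8 at 0.772 and Hoxd9 at 0.499. Among 21811 protein-coding genes ranked by mean CPM per kb of whole exon length, Hoxb3 reached percentile 63.9, Hoxb4 58.4, Hoxb2 51.6, Hoxd8 41.8 and Hoxd9 38.6. Even the Hox genes with the highest levels thus stood near the middle of the ranking. The median protein-coding gene that had enough counts to be tested stood at 5.29 CPM per kb.

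**Figure D2:**
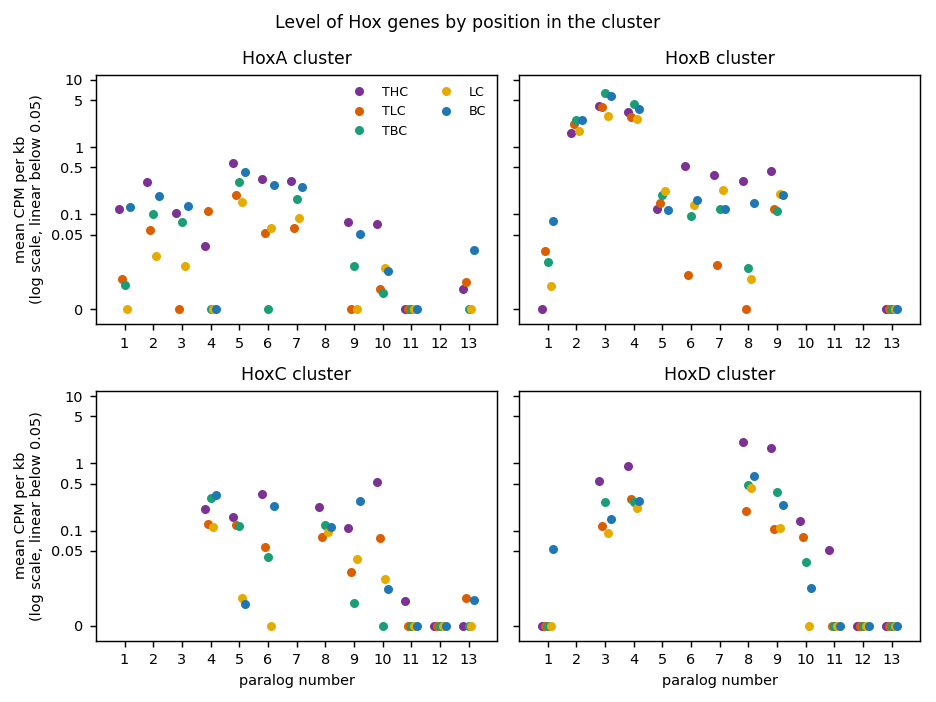
Mean level of each Hox gene (CPM per kb of exon, log scale with a linear part below 0.05) by paralog number, with a panel per cluster and a colour per population (means of 2 libraries). Paralogs 2 to 4 of HoxB lie above 1 CPM per kb in all 5 populations, and of the other genes only Hoxd8 and Hoxd9 in THC do.

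The Hoxb2 to Hoxb4 block lies beside an antisense gene, Hoxb3os, which limits what Hoxb2 and Hoxb3 counts mean. Only 47.1% of Hoxb3 exon bases and 72.7% of Hoxb2 exon bases are free of other genes, while Hoxb4 (11:96318267-96321638, plus strand) overlaps none. Hoxb3os had 1 to 1.42 times the counts of Hoxb3 in each library. Across the genome, 119 genes that lie wholly under exons of a well-counted gene on the other strand had a median of 1.23 times the counts per exon base of that partner, with a lower decile of 0.179 and an upper decile of 2.69. Such genes took counts at a level near that of their partners in the median, and the strand option of counting was not given. Reads of Hoxb3 and Hoxb3os may therefore not be separated by the counts. The same holds for Hoxb2 and Hoxb3os where they overlap. Hoxb4 alone in the block is free of this limit. Among members outside the block, Hoxd3, Hoxd4, Hoxa3 and Hoxa7 had 37.15%, 47.7%, 72.9% and 79.6% of exon bases free of other genes.

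Promoter sequences from RefSeq (GRCm38.p6) were found for 22 of the 39 members, 24 promoters in all. The 250 bases before the start are shown for Hoxd8 and Hoxd9, whose CPM was highest in the THC libraries. They are also shown for Hoxb4, the gene of the HoxB block free of antisense overlap, and for Hoxd13, which had 0 counts. Capitals mark matches on either strand to 4 motifs. The first is CCAAT, the second is the GC box GGGCGG, and the third is the TATA box, written as TATAAA. The last is TGATTNAT, a motif bound by Pbx and Hox proteins together. Matches overlap each other within the repeated GC boxes and within the TATA box of Hoxd13.
Hoxd8, chr2:74704365-74704614, plus strand: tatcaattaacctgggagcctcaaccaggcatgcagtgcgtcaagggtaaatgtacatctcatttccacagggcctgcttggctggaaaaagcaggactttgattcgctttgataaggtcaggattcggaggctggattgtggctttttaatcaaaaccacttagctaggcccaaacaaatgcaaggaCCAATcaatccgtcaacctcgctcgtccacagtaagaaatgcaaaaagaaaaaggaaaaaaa
Hoxd9, chr2:74697513-74697762, plus strand: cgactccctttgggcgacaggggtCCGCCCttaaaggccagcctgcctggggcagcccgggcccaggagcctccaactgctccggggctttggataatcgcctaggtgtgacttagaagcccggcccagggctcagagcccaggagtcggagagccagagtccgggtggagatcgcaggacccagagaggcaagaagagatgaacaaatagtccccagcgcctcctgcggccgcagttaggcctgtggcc
Hoxb4, chr11:96318017-96318266, plus strand: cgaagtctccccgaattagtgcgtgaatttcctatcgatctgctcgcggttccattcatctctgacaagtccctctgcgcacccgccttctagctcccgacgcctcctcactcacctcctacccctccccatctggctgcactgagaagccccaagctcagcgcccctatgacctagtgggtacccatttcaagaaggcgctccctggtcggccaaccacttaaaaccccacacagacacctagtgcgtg
Hoxd13, chr2:74667975-74668224, plus strand: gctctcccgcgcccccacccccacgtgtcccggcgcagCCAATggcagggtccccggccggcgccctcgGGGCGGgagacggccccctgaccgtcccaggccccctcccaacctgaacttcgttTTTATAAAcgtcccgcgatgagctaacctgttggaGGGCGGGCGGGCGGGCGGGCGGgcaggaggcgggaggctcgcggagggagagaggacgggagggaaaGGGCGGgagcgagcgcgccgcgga
The Hoxd8 window holds 1 CCAAT match and 6 CG dinucleotides, and the Hoxd9 window holds 1 GGGCGG match and 13 CG dinucleotides. The Hoxb4 window holds none of the 4 motifs and 14 CG dinucleotides. The Hoxd13 window holds 1 CCAAT, 7 GGGCGG and 2 TATAAA matches and 31 CG dinucleotides.

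Members had more CG dinucleotides in this window than most promoters, with a median of 12.5 over 24 promoters against 6 over all 32851 in the table. Among members with at most 5 counts the median was 20 over 7 promoters, and among members with more than 5 counts it was 12 over 17 promoters. CCAAT was in 14 of the 24 promoters (58.3%) against 33.9% of all promoters, and GGGCGG in 10 (41.7%) against 32.7%. TATAAA was in 4 (16.7%) against 12.4%, and TGATTNAT in 2 (8.33%), those of Hoxa2 and Hoxd11, against 2.83%. A match is a run of letters and not a measured binding site.

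Population means of the Hoxb2 to Hoxb4 block lay within 2.22-fold of each other for each gene. Hoxb4, which promotes growth of blood stem cells when raised in them, stood at 7.75 and 9.52 CPM in THC, 5.79 and 8.65 in TLC, 11.8 and 10.5 in TBC, 5.85 and 7.61 in LC, and 7.06 and 11.9 in BC. Its population means spanned 1.66-fold. Both TBC libraries lay above all libraries of THC, TLC and LC, both THC libraries lay above both LC libraries, and all other pairs of populations overlapped. Hoxb3 stood at 14.3 and 20.9 CPM in THC, 13.2 and 20.3 in TLC, 25.7 and 29.3 in TBC, 10.95 and 13.9 in LC, and 14.5 and 33.8 in BC. Its order by mean was TBC, BC, THC, TLC and LC, with a span of 2.22-fold. The BC libraries were far apart, with LC wholly below them, and both TBC libraries lay above all libraries of THC, TLC and LC. Hoxb2, which patterns the hindbrain, stood at 3.49 and 7.83 CPM in THC, 5.61 and 9.56 in TLC, 8.999 and 8.72 in TBC, 4.55 and 7.47 in LC, and 7.06 and 10.5 in BC. These ranges overlapped except that both TBC libraries lay above both THC and both LC libraries.

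**Figure D3:**
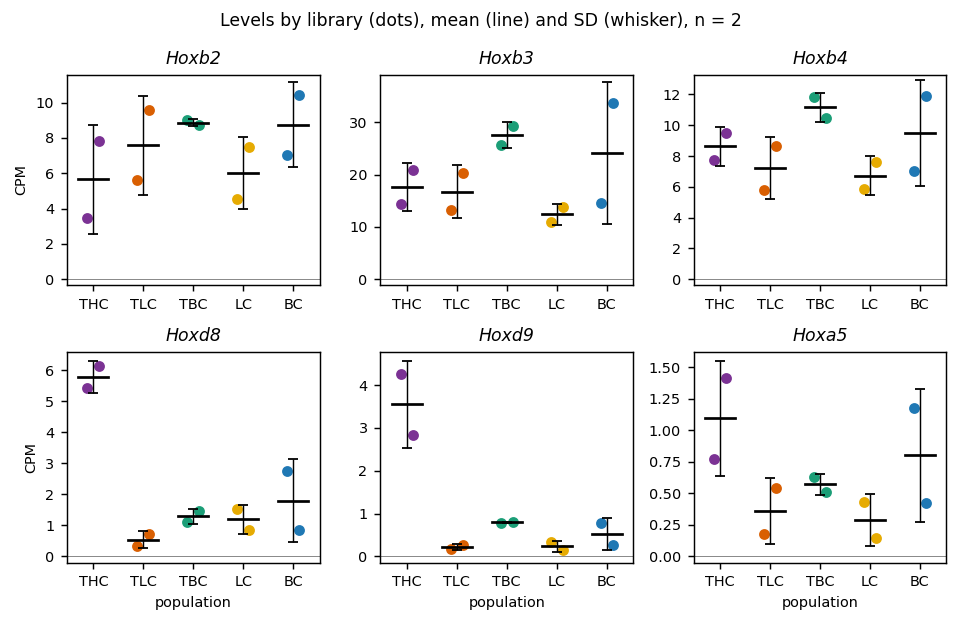
CPM of 6 Hox genes by library (dots, 2 per population), with the population mean (line) and SD (whisker). THC values of Hoxd8 and Hoxd9 lie above every other library, at 5.42 and 6.14 CPM and at 4.26 and 2.84 CPM, while population means of Hoxb2, Hoxb3 and Hoxb4 span at most 2.22-fold.

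Differences were tested with edgeR's quasi-likelihood F-test on all 10 libraries, with Benjamini-Hochberg adjustment over 19757 genes, and a gene was called at an adjusted p under 0.05. Only 9 of the 39 members had enough counts, namely Hoxa3, Hoxa5, Hoxa7, Hoxb2, Hoxb3, Hoxb4, Hoxb9, Hoxd8 and Hoxd9. Hoxd9 and Hoxb9 reached the level of the low-count filter in the 2 THC libraries only, so their being tested at all rests on THC. Hoxa3, Hoxa5 and Hoxa7 reached it only in THC replicate 2 and BC replicate 1. The edgeR test for any difference among the 5 populations called Hoxd8 (adjusted p = 0.014) and Hoxd9 (adjusted p = 0.0059), where 26.7% of all genes tested were called. Since its being tested rests on THC, nothing is read from the Hoxd9 call or from the members' count. By edgeR, adjusted p-values of Hoxb2, Hoxb3 and Hoxb4 in the same test were 0.7, 0.18 and 0.48.

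Hoxd8 and Hoxd9, neighbours in the middle of the HoxD cluster, had higher CPM in both THC libraries than in both TLC libraries. Hoxd8, which acts in trunk patterning, stood at 5.42 and 6.14 CPM in THC (14 and 91 counts), 0.351 and 0.728 in TLC (2 and 8 counts), 1.11 and 1.47 in TBC, 1.52 and 0.861 in LC, and 2.74 and 0.850 in BC. Both THC libraries lay above all 8 others, and the nearest was BC replicate 1. Hoxd9, a patterning gene of trunk and limb, stood at 4.26 and 2.84 CPM in THC (11 and 42 counts), 0.175 and 0.273 in TLC (1 and 3 counts), 0.789 and 0.806 in TBC, 0.325 and 0.144 in LC, and 0.784 and 0.255 in BC. Both THC libraries again lay above all 8 others, and TBC lay above TLC, LC and, by a small margin, BC.

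Against TLC, the log2 fold change of THC was 3.31 ± 0.69 (SE) for Hoxd8, with a 95% interval of 1.81 to 4.82 (edgeR adjusted p = 0.038). For Hoxd9 it was 3.78 ± 0.79 (SE), with an interval of 2.05 to 5.51 (edgeR adjusted p = 0.039). In this comparison 1.61% of all genes tested were called and 1.52% were called higher in THC. Since Hoxd9 was tested only through its THC libraries, its call is not read as support for a difference. For the same reason nothing is read from the count of 2 members against these shares. Both calls were close to the threshold and both were lost when any 1 of the 4 THC and TLC libraries was left out. Calls over all genes fell as well in these fits, which leave 1 library in a population. Hoxd8 then had log2 fold changes of 2.98 to 3.99 with edgeR adjusted p of 0.075 to 0.23, and Hoxd9 had 3.52 to 4.17 with 0.12 to 0.28. Hoxa3 had 0 counts in both TLC libraries and 0 and 17 counts in THC, so its fitted fold change is not given.

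Against TBC, THC was 2.14 ± 0.62 (SE) log2 units higher for Hoxd8 (edgeR adjusted p = 0.086) and 2.07 ± 0.66 higher for Hoxd9 (edgeR adjusted p = 0.12). Neither passed the threshold. Of 9 members 0 were called by edgeR in this comparison and 2 had an unadjusted p under 0.05, where 3.72% of all genes were called. DESeq2 and limma-voom called 0 as well. Hoxd8 was called in a fit of these populations alone (edgeR adjusted p = 0.032) and with no low-count filter (edgeR adjusted p = 0.038). Hoxd8 was also called in a fit with a term for sets of library numbers. The lower ends of the intervals were 0.79 for Hoxd8 and 0.62 for Hoxd9. The comparisons of THC with TLC and with TBC share the THC libraries.

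**Figure D4:**
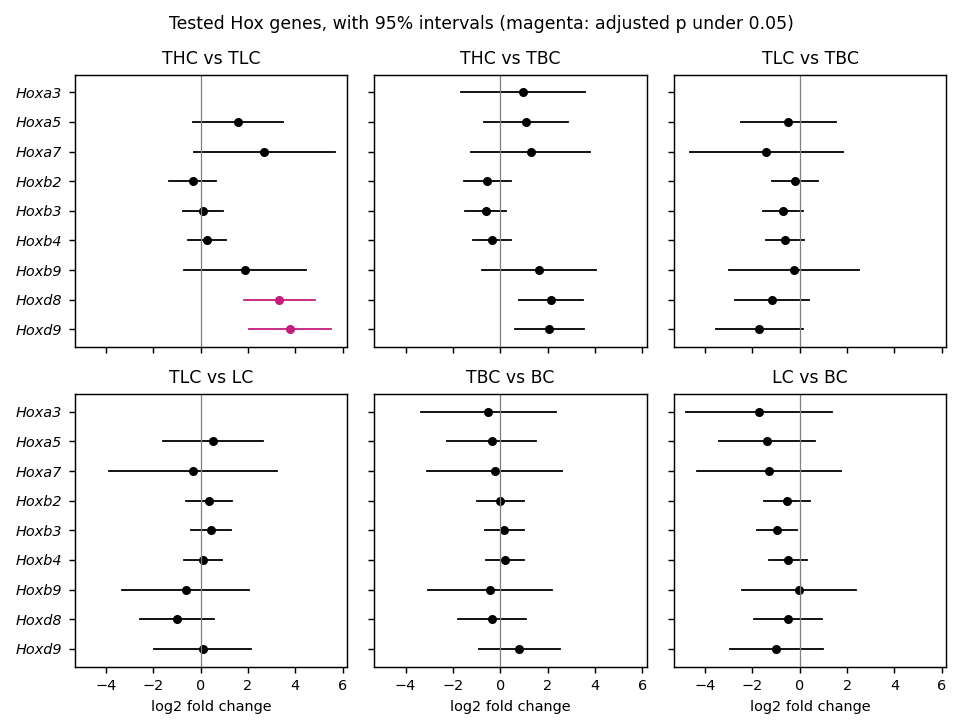
Log2 fold change (dot) and 95% interval (line) of the 9 tested Hox genes in 6 comparisons, the first-named population over the second. Hoxa3 is left out where TLC, with 0 counts, is compared. Magenta marks Hoxd8 and Hoxd9 in THC vs TLC, at 3.31 and 3.78, the only calls.

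The contrast of LC with BC, the populations with no treatment label, gave no called member. Fitted log2 fold changes of LC over BC ran from -1.71 for Hoxa3, which was tested only through THC replicate 2 and BC replicate 1, to -0.03 for Hoxb9, and the median over all genes was -0.04. Hoxb3 came nearest to a call, with a log2 fold change of -0.97 ± 0.38 (SE), an interval of -1.82 to -0.13 and an edgeR adjusted p of 0.092. Of the 9 members 0 were called and 1, Hoxb3, had an unadjusted p under 0.05 by edgeR, where 24.0% of all genes were called. DESeq2 and limma-voom called 0 as well, while Hoxb3 was called with no low-count filter (edgeR adjusted p = 0.022). Hoxb3 was also called in a fit with a term for sets of library numbers. The value hung on the BC libraries, of which only replicate 2 was marked wild type. Without BC replicate 1 the log2 fold change of Hoxb3 was -1.45 (edgeR adjusted p = 0.014), and without BC replicate 2 it was -0.21 (edgeR adjusted p = 0.77). Hoxb4, free of the antisense overlap, gave -0.51 ± 0.36 (SE) with an interval of -1.30 to 0.29, and Hoxb2 gave -0.55 ± 0.44 with an interval of -1.52 to 0.42.

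The other contrasts called no member either. In TLC vs TBC, 0 of 9 members were called by edgeR and 0 had an unadjusted p under 0.05, beside 13.6% of all genes called. Hoxb3 was at -0.71 with an interval of -1.55 to 0.13, and Hoxd9 at -1.71 with an interval of -3.55 to 0.14. In TLC vs LC the counts by edgeR were 0 and 0, beside 8.22% of all genes called, and Hoxb4 was at 0.11 with an interval of -0.69 to 0.91. In TBC vs BC they were 0 and 0, beside 0% of all genes called, and Hoxb4 was at 0.21 with its interval starting at -0.58. DESeq2 and limma-voom called 0 members in these contrasts. A further test asked whether the difference between Tomato cells and cells with no treatment label itself differed between lineages. It gave 0 members by edgeR with either p, beside 0.911% of all genes. These intervals hold both a decrease and an increase, and differences within them were not detectable at this depth.

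Summed over the 36 members outside the Hoxb2 to Hoxb4 block, THC stood apart. The sum was 20.5 and 27.3 CPM in THC, 2.46 and 6.92 in TLC, 6.16 and 9.38 in TBC, 8.02 and 2.80 in LC, and 16.5 and 5.70 in BC. Both THC libraries lay above all 8 others, and BC replicate 1 came next. These members made up 44.5% of Hox counts in THC replicate 1 (Wilson 95% interval 35.9 to 53.5) and 41.7% in THC replicate 2 (38.7 to 44.8). In BC replicate 1 they made up 36.5% (30.6 to 42.9), in LC replicate 1 27.3% (22.4 to 32.9), and in the 6 other libraries 8.82% to 16.2%.

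At similar depth, THC replicate 2, with 13601753 counts in all, gave 405 counts to these members, against 128 in TBC replicate 2, 39 in LC replicate 2 and 67 in BC replicate 2, which held 13270498, 13685674 and 12286209 counts in all. For HoxD, HoxC and the 7 HoxB genes outside the block, the sums of both THC libraries lay above all 8 others. For HoxA they did not, with 1.94 and 6.82 CPM in THC against 5.88 CPM in BC replicate 1 and 2.05 CPM in TBC replicate 1. The mean sum in THC was 11.9 ± 0.424 CPM for HoxD, 4.38 ± 3.45 for HoxA, 3.94 ± 0.636 for the 7 HoxB genes outside the block and 3.70 ± 0.303 for HoxC (SD, n = 2). In TLC these sums were 1.49 ± 1.37, 0.988 ± 0.405, 0.900 ± 0.529 and 1.31 ± 0.855 CPM in the same order of clusters (SD, n = 2). Posterior members, paralogs 9 to 13, summed to 7.05 ± 0.432 CPM in THC, 1.03 ± 0.469 in TLC, 1.40 ± 0.411 in TBC, 1.01 ± 1.02 in LC and 2.29 ± 1.196 in BC (SD, n = 2 each). Without Hoxd8 and Hoxd9 the remaining 34 members summed to 10.9 and 18.4 CPM in THC and to 12.9 CPM in BC replicate 1, which then lay between the THC libraries. No test was made of these sums.

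Single members of this group had few counts. Hoxa5, which patterns the lung and neck, stood at 0.775 and 1.42 CPM in THC, 0.175 and 0.546 in TLC, 0.632 and 0.513 in TBC, 0.434 and 0.144 in LC, and 1.18 and 0.425 in BC. Hoxa7 stood at 0 and 1.82 CPM in THC and at 1.37 and 0.0850 in BC, with 0.0718 to 0.513 in the 6 other libraries. In both genes the libraries of THC, and those of BC, were far apart. Hoxc4 and Hoxc8, the HoxC genes with the highest mean CPM, had too few counts to be tested, with 0.387 and 0.675 CPM for Hoxc4 and 0.387 and 0.877 CPM for Hoxc8 in THC, against 0 to 1.10 and 0 to 0.542 CPM in the 8 other libraries. Of the 31 other members with any count, 21 (67.7%) had their highest mean CPM in THC, against 22.9% of the 19356 genes with 1 to 200 counts.

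Endothelial, fibroblast and immune marker sums were highest in both THC libraries, as this sum was, while the Schwann cell sum was not. Over 5 Schwann cell markers the sum was 50.75 and 150.7 CPM in THC and 195.3 and 257.5 CPM in TBC. Summed over 12 endothelial markers, such as Pecam1 and Cdh5, the level was 575.7 and 528.3 CPM in THC, 86.8 and 94.4 in TLC, 181.7 and 162 in TBC, 221.5 and 49.6 in LC, and 405.1 and 93.9 in BC, with 12 of 12 markers detected in every library. The 3 libraries with the highest endothelial sum, both THC libraries and BC replicate 1, were the 3 with the highest sum of the 36 members, also without Hoxd8 and Hoxd9. Within TLC, LC and BC, the library with more endothelial signal also had the higher sum of these members, and within THC and TBC it had the lower. Summed over 11 fibroblast markers the level was 923.1 and 1993 CPM in THC, 129.6 and 353.3 in TLC, 365.5 and 667.5 in TBC, 329.6 and 294.1 in LC, and 374.1 and 333.3 in BC. The collagen genes carried this sum, with Col1a1 at 244.1 and 719.9 CPM in THC and 3.66 to 132.1 CPM in the 8 other libraries. Other fibroblast markers were not highest in THC: Pdgfra stood at 24.8 and 31.1 CPM in THC and 69.8 and 51.4 CPM in BC, and Dcn at 57.7 and 152.2 CPM in THC and 268.6 and 274 CPM in LC. In LC replicate 2 the fibroblast marker Twist2 was at 0, and 10 of 11 were detected there.

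Immune markers summed to 340.9 and 142.4 CPM in THC and to 47.7 to 103.2 CPM in the 8 other libraries. Adipocyte markers summed to 155.7 and 96.8 CPM in THC and to 164.2 CPM in BC replicate 1, against 14.1 to 53.7 CPM in the 7 other libraries. Fabp4, which endothelial cells carry too, made up nearly all of it, at 148.8 and 92.9 CPM in THC and 159.1 CPM in BC replicate 1, while the defining adipocyte markers Adipoq, Cidec and Plin1 were at 0 in both THC libraries. Of 7 pericyte markers, Notch3, which luminal cells carry too, made up most of the sum in TLC and LC, at 247.2 and 358.3 CPM in TLC and 256.5 and 272.4 CPM in LC. The pericyte marker Rgs5 stood at 179 and 109.6 CPM in THC, 9.82 and 15.5 in TLC, 55.7 and 38.6 in TBC, 43.6 and 6.75 in LC, and 103.3 and 17.4 in BC. Against TLC, THC had a median log2 fold change of 2.82 over 12 endothelial markers, 2 of them called higher, of 2.69 over 11 fibroblast markers, 1 of them called higher, and of 2.92 over 6 tested pericyte markers, 2 of them called higher, while the median over all genes was 0.02. The part of endothelial, fibroblast, pericyte or immune RNA in the higher Hoxd8, Hoxd9 and summed Hox levels of THC was not tested. The Hoxb2 to Hoxb4 block did not follow the endothelial sum. It stood at 25.6 and 38.2 CPM in THC and 28.6 CPM in BC replicate 1. In BC replicate 2, which had one of the lower endothelial sums, it stood at 56.1 CPM. The libraries with the 3 highest block sums, BC replicate 2 and both TBC libraries, also had the 3 highest Schwann cell and basal marker sums. The part of basal or Schwann cell RNA in the block level was not tested.

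**Figure D5:**
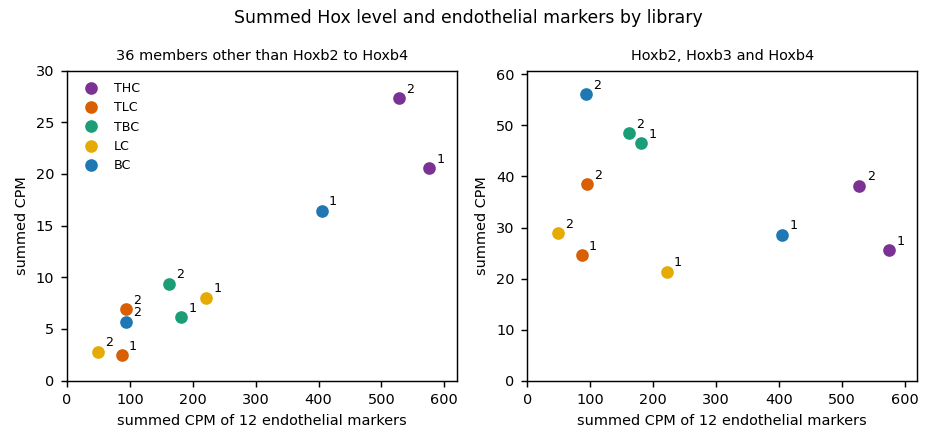
Summed CPM of the 36 Hox genes outside the Hoxb2 to Hoxb4 block (left) and of that block (right) against the summed CPM of 12 endothelial markers, with a dot per library, a colour per population and the replicate number beside it. On the left, both THC libraries and BC replicate 1 stand high on both axes, and on the right the block shows no such order.

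Genes that work with or upon Hox proteins were read from lists in the same fit. Beside the counts of list genes, the shares of all genes tested that were called higher and lower were 11.5% and 12.5% in LC vs BC, 5.59% and 8.02% in TLC vs TBC, 4.46% and 3.77% in TLC vs LC, and 2.57% and 1.14% in THC vs TBC. Pbx, Meis and Pknox proteins bind DNA together with Hox proteins, and Pbxip1 encodes a protein that binds Pbx. Of 10 genes of this list, 4 were lower and 1 was higher in LC than in BC. Pbx3 stood at 3.58 and 2.87 CPM in LC and 13.5 and 15.7 CPM in BC, a log2 fold change of -2.19 ± 0.36 (SE, edgeR adjusted p = 0.001). LC and BC did not overlap in this gene. Pknox2 fell by 2.22 on the log2 scale (edgeR adjusted p = 0.0029), and Meis1 was higher in LC by 0.75 (edgeR adjusted p = 0.031).

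In TLC vs LC, 2 of the 10 were called higher and 0 lower. Pbx3 stood at 22.6 and 14.7 CPM in TLC, 2.53 log2 units above LC (edgeR adjusted p = 0.0022). In TLC vs TBC 0 were higher and 2 lower, Pbxip1 (edgeR adjusted p = 0.0089) and Pknox2, at -1.53 (edgeR adjusted p = 0.034). By edgeR 0 of 10 were called in THC vs TBC, THC vs TLC and TBC vs BC, where 3, 0 and 0 had an unadjusted p under 0.05.

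Polycomb proteins keep Hox genes silent and trithorax proteins keep them active. Of 28 Polycomb genes, 1 was higher and 3 lower in LC than in BC. Bmi1, a subunit that compacts chromatin, was higher by 1.27 ± 0.23 (SE, edgeR adjusted p = 0.002), and Cbx2, a subunit that reads the Polycomb mark, stood at 1.08 and 3.23 CPM in LC and 7.64 and 17.5 CPM in BC (edgeR adjusted p = 0.0042). In TLC vs LC, 2 were higher and 1 lower. Ezh2, the enzyme that writes the mark, stood at 68.9 and 54.3 CPM in TLC and 30.03 and 34.5 CPM in LC, a log2 fold change of 0.93 ± 0.21 (SE, edgeR adjusted p = 0.019). In TLC vs TBC 0 were higher and 1 lower, Cbx6 at -1.05 (edgeR adjusted p = 0.049). By edgeR 0 of 28 were called in THC vs TLC, THC vs TBC and TBC vs BC, where 0, 4 and 1 had an unadjusted p under 0.05. Of 18 trithorax and activator genes, Dot1l alone was called, higher in LC than in BC by 1.18 and in TLC than in TBC by 0.85 on the log2 scale (edgeR adjusted p = 0.0012 and 0.014).

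Retinoic acid switches on anterior Hox genes in the embryo. Of 18 genes of its synthesis, breakdown and binding, 14 were tested, and 3 were higher and 2 lower in LC than in BC. Aldh1a3, an enzyme that makes retinoic acid, stood at 112.4 and 134.8 CPM in LC and 15.1 and 16.2 CPM in BC (edgeR adjusted p = 6e-04). In TLC vs TBC 3 were higher and 1 lower, with Aldh1a3 at 3.74 on the log2 scale (edgeR adjusted p = 0.00042). In TLC vs LC 3 were higher and 1 lower, in THC vs TBC 2 were higher and 0 lower, and in THC vs TLC 0 were called by edgeR and 4 had an unadjusted p under 0.05.

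Genes that flank the clusters were set beside them. Evx2, next to Hoxd13, had 0 counts in every library. Of 15 flanking genes 14 were found and 12 tested, and in LC vs BC 3 were higher and 1 lower, with Skap2, next to HoxA, at 1.16 (edgeR adjusted p = 0.0054) and Calcoco1, near HoxC, at -1.10 (edgeR adjusted p = 0.0042). Of 16 noncoding RNAs of the clusters found in the files only Hoxb3os and Hoxd3os1 were tested, and edgeR called 0 of them in any comparison, with 0 at an unadjusted p under 0.05. Hoxd3os1 stood at 1.16 and 0.945 CPM in THC (3 and 14 counts) and at 0 to 0.440 CPM in the 8 other libraries. It overlaps Hoxd3 and Hoxd4 on the other strand, so its reads may not be separated from theirs where they overlap. Of 13 other homeobox genes 4 were tested, and in TLC vs TBC 2 were called higher and 1 lower. The lowest log2 fold change there was -3.07. Dlx3 stood at 1.053 and 0.728 CPM in TLC and at 3.315 and 11.07 CPM in TBC. Msx2 and Dlx5 were higher in LC than in BC by 3.85 and 2.44 on the log2 scale (edgeR adjusted p = 0.00031 and 0.017), higher in TLC than in TBC by 2.09 and 4.17 (adjusted p = 0.017 and 0.0038), and higher in THC than in TBC by 2.47 and 3.36 (adjusted p = 0.022 and 0.039).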

How the data were processed

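Total RNA of sorted mammary gland cells was sequenced, and the authors deposited HTSeq counts per Ensembl gene for each of the 10 libraries. STAR, HTSeq and GRCm38 are named per the submitters' processing notes, and versions, annotation release and the strand option of counting were not given in the sources used here. The 5 summary rows were removed. Of 49671 identifiers 49412 matched GENCODE M21. Counts were tested with edgeR 4.0.16 in R 4.3.3: TMM factors, filterByExpr, robust quasi-likelihood fit, 1 coefficient per population, Benjamini-Hochberg over 19757 genes, and 5 residual degrees of freedom. The same steps were tested on simulated data. CPM use the TMM factors, and level per kb uses exon bases shared with no other gene on that strand. DESeq2 1.42.0, limma 3.58.1 (voom), other factors, filters and left-out libraries were alternatives. All 39 members were accounted for, and statistics were given for called members and the 2 with the highest mean CPM per cluster. List genes named were up to 3 called per list and comparison, with Meis1 and Ezh2, and some list genes are not reported here. The members and lists were chosen with earlier results of these data known.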

Additional observations from a re-analysis of the deposited data

How the results depend on the processing

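Other processing moved the count of Hox genes called, from 2 in the test of any difference, 2 in THC vs TLC and 0 elsewhere. For any difference it was 4 with no filter, 1 with the stricter filter of 5 CPM in 2 libraries and 1 to 3 with a library left out. For THC vs TLC it was 0 with upper-quartile factors, 0 with the stricter filter, which does not test Hoxd9, 1 (Hoxd8) in DESeq2, whose adjusted p for Hoxd9 was not available, 1 (Hoxd8) in a fit of only these populations, 3 with no filter (Hoxa3, Hoxd8 and Hoxd9), and 0 to 0 with a library left out. For LC vs BC it was 2 with no filter (Hoxb3 and Hoxc6) and 0 to 1 with a library left out. For THC vs TBC it was 2 with no filter (Hoxc10 and Hoxd8) and 1 (Hoxd8) in the fit of only these populations. With the replicate block, a term for sets of library numbers, it was 1 for LC vs BC (Hoxb3) and 1 for THC vs TBC (Hoxd8); over all genes it called 7052 for any difference, against 5272 without it. The labels do not say what a set is. Each set held a library of every population, and in every population replicate 1 had fewer assigned counts than replicate 2. Deviations of the same set correlated from -0.01 to 0.42 (median 0.20) over 10 pairs of populations. The main fit did not treat the sets as pairs, and whether they are pairs was not settled. The cause of these moves was not tested. In THC vs TLC neither Hoxd8 nor Hoxd9 changed sign. Hoxd8 changed sign, with no call, in LC vs BC (-0.50, and 0.44 without BC replicate 1) and in TBC vs BC (-0.34, and 0.61 without BC replicate 1). RLE factors and limma-voom kept every count within 1.5 times. Leaving out a library leaves 1 in its population, which is assumed to vary like the others.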
